A study of Mus musculus with 9 samples.

Results

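The genes described here encode 8 enzymes that handle glyoxylate, hydroxy acids and D-amino acids in peroxisomes and mitochondria. They are Hao2, Grhpr, Prodh2, Hoga1, Dao, Ddo, Pipox and Agxt2, taken by symbol from the 52405 gene rows of the expression table, and each has a single row. Expression was measured by RNA sequencing in 9 libraries of kidney cortex cells from C57BL/6 mice, a common inbred strain. The cells were dissociated and then captured on a magnetic column with an antibody against prominin-1, a protein of the brush border, and the labels call the captured fraction kidney proximal tubule. The groups were sham-operated adult males (M), females sham-operated at postnatal day 21 (D21-s) and females ovariectomized at postnatal day 21 (D21-ovx), with 3 libraries each. All groups are of the same strain and all were operated on. For the males the day of surgery, and for the females the age at collection, is not given in the labels. The libraries are called biological replicates, but no label says whether a library came from 1 animal or from several.

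Glyoxylate is a small reactive acid that forms when hydroxyproline, glycine and glycolate are broken down. If it is not turned into glycine or glycolate, it can be oxidised to oxalate, which crystallises with calcium in urine. The proximal tubule is rich in peroxisomes, where flavin oxidases oxidise hydroxy acids, D-amino acids, pipecolate and sarcosine and release hydrogen peroxide, which catalase destroys. D-amino acid oxidase has long been known from kidney, where it degrades filtered D-amino acids.

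Only Hao2, Prodh2 and Pipox passed the test in any comparison, and all 3 were higher in females than in males. Hao2 stood apart in size, at 5.91 times the male level in sham females and 5.38 times in ovariectomized females. Prodh2 was at 1.32 and 1.64 times the male level in the same groups, and its call in sham females was lost in 10 of 13 alternative fits. Pipox passed in ovariectomized females, at 1.36 times the male level, and not in sham females. The other 5 genes lay between 0.839 and 1.25 times the male level in both female groups and did not pass. Of all genes tested, 4.28% passed as higher and 4.87% as lower in sham females than in males. In ovariectomized females against males the shares were 5.63% and 6.19%. No member passed the test between ovariectomized and sham females, where only 1 of all 13160 genes tested did.

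The promoter sequences of the 2 members that passed in sham females are shown because both carry matches to a core of the HNF1 motif, HNF1 being a transcription factor family of the proximal tubule. That of Agxt2 is shown because it carries a match to a motif of HNF4A, another proximal tubule factor, that few promoters hold. Each run is the 250 bases before the RefSeq start site in build GRCm38.p6, read 5′ to 3′ on the strand of the gene, with matches in capitals. The Hao2 window is chr3:98893231-98893480 on the minus strand, the Prodh2 window is chr7:30493408-30493657 on the plus strand, and the Agxt2 window is chr15:10358283-10358532 on the plus strand.
Hao2: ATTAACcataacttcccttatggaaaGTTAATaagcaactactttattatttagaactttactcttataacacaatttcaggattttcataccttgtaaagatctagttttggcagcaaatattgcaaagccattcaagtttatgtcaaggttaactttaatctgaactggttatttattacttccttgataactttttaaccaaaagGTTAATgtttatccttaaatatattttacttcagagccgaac
Prodh2: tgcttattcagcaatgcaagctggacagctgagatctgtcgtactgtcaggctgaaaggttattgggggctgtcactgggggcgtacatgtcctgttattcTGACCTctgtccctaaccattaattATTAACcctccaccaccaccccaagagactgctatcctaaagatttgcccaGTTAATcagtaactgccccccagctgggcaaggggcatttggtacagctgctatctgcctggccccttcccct
Agxt2: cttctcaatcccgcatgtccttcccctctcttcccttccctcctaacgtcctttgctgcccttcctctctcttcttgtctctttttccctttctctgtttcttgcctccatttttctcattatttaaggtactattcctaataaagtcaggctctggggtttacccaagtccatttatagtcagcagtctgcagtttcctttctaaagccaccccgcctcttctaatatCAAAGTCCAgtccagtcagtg

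The capitals mark GTTAAT (a core of the HNF1 motif), AGGTCA (a core bound by nuclear receptors) and CAAAGTCCA (HNF4A), each searched on both strands, so ATTAAC and TGACCT are the opposite-strand forms. Hao2 held 3 matches to GTTAAT, of which the nearest lay 42 to 37 bases before the start. Prodh2 held 2, and Hoga1 held 1. GTTAAT was in 3 of the 11 RefSeq promoters of the 8 members and in 6.43% of 32851 mouse promoters. CAAAGTCCA was in both overlapping promoters of Agxt2, which share the site, and in 0.384% of all promoters. AGGTCA was in 4 of the 11 and in 14% of all promoters. AGAACA, a core bound by the androgen receptor, was in 1 of the 11, a promoter of Dao, and in 16.1% of all, and TTCNNNGAA, a STAT5 motif, was in none of the 11 and in 7.02% of all. The Hao2 window was poor in G and C, at 28.4% against a median of 52.4% over all promoters. The other 10 windows ranged from 45.6% to 66.4%. These are matches of letters and were not tested as sites.

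Values are FPKM, fragments per kilobase of transcript scaled to the mapped fragments of the library, which are per length and so can be compared between genes. No scaling between libraries beyond this is stated, and alternative scalings were tried. Depth is not given in the sources used here, and the spacing of low values put it at about 21250000 to 28750000 reads per library. Differences are given as log2 fold changes of FPKM + 1 with their standard error (SE). They were tested with limma over the 13160 genes that reached 1 FPKM in 3 or more libraries, and a gene is called here at an adjusted p under 0.05. All 8 members passed this filter, with 17.54 FPKM or more in every library. The 3 libraries of a group correlated across genes at 0.9795 to 0.9866.

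The label of the fraction was checked against marker genes. Of 12 markers of the whole proximal tubule 12 passed the filter, and their summed FPKM was 11730 to 14120 in M, 16530 to 17350 in D21-s and 17340 to 18120 in D21-ovx. The 8 markers of early segments overlapped between the groups, at 1587 to 2478, 1903 to 2448 and 1782 to 2092. The 8 markers of the late segment summed to 1163 to 1460 in M, 1638 to 1888 in D21-s and 1915 to 2244 in D21-ovx. Most of that sum was Slc27a2, with means of 1025.57 FPKM in M, 1419.85 in D21-s and 1705.99 in D21-ovx. The late-segment markers did not move together. Of the 7 tested 5 were called higher and 2 lower in D21-s than in M, and 3 higher and 2 lower in D21-ovx. The lower ones were Slc7a13, at 47.8 ± 5.48 FPKM in M and 0.170 ± 0.0889 in D21-s, and Atp11a, at 71.8 ± 11.1 and 22.8 ± 1.98. Markers of other cell types were present too. Their 75 genes, of which 60 passed the filter, summed to 3719 to 5400 FPKM in M, 2008 to 3403 in D21-s and 2416 to 3547 in D21-ovx. Umod of the thick ascending limb was the highest defining marker, at 503 to 1481 FPKM over the 9 libraries, while Cd3e of T cells was at 0 to 0.16. Prom1, which encodes prominin-1, was at 45.3 ± 8.11 FPKM in M, 98.6 ± 26.9 in D21-s and 74.4 ± 5.23 in D21-ovx (SD, n = 3). It was called higher than in M in D21-s (1.08, limma adjusted p = 0.00671) and in D21-ovx (0.71, adjusted p = 0.0357). Between D21-s and M 18 of the 60 tested markers of other cell types were called lower and 3 higher. Between D21-ovx and M 7 of them were called lower and 3 higher. The male fractions thus held less RNA of the markers of the whole proximal tubule and more of the pooled other-cell markers, as sums, while the early-segment sums overlapped. Between M and D21-s the sums of the distal convoluted tubule, collecting duct and hepatocyte lists did not overlap. Those of the thick ascending limb, podocyte, endothelial, stromal, myeloid, and lymphoid and erythroid lists did. The hepatocyte genes did not move together. Their sum mostly follows Ttr, at 104 ± 19.5 FPKM in M and 40.5 ± 7.65 in D21-s. Of the 5 hepatocyte genes tested 1, Ttr, was called lower in D21-s than in M, and 2, Alb and Apoa2, were called higher. The part of these marker differences in the results below was examined only by a fit with the level of the other-cell markers as a covariate. That level, a centred log2 mean, was 0.268 to 0.632 in the male libraries and -0.672 to 0.185 in the female ones. The fit therefore separates group from marker level poorly. In bulk samples fewer cells of a type and less RNA per cell cannot be told apart.

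Apart from Ddo, the members were among the better expressed genes of these cells. By group mean Ddo stood between the 70.1 and 74.0 percentile of the tested genes, and the others stood at the 88.8 percentile or higher. In M, Dao was highest at 212 ± 14.9 FPKM, followed by Grhpr at 137 ± 1.16, Pipox at 120.2 ± 8.83, Prodh2 at 95.5 ± 14.2, Hoga1 at 80.5 ± 6.50, Hao2 at 71.2 ± 3.78, Agxt2 at 60.5 ± 8.38 and Ddo at 22.0 ± 1.19 (SD, n = 3). The libraries of Prodh2 and Hoga1, of Hoga1 and Hao2, and of Hao2 and Agxt2 overlapped, so the order of these neighbours is within their spread. In both female groups Hao2 was first and Dao second, and their libraries did not overlap. In D21-s the only neighbours whose libraries overlapped were Grhpr and Pipox, and in D21-ovx Pipox and Prodh2. The summed FPKM of the 8 genes was 769 to 852 in M, 1195 to 1249 in D21-s and 1248 to 1264 in D21-ovx. Hao2 made up 7.96% to 9.78% of that sum in M, 32.6% to 35.3% in D21-s and 28.5% to 32.9% in D21-ovx. Without Hao2 the sums were 694 to 784, 796 to 808 and 849 to 893 FPKM.

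**Figure D1:**
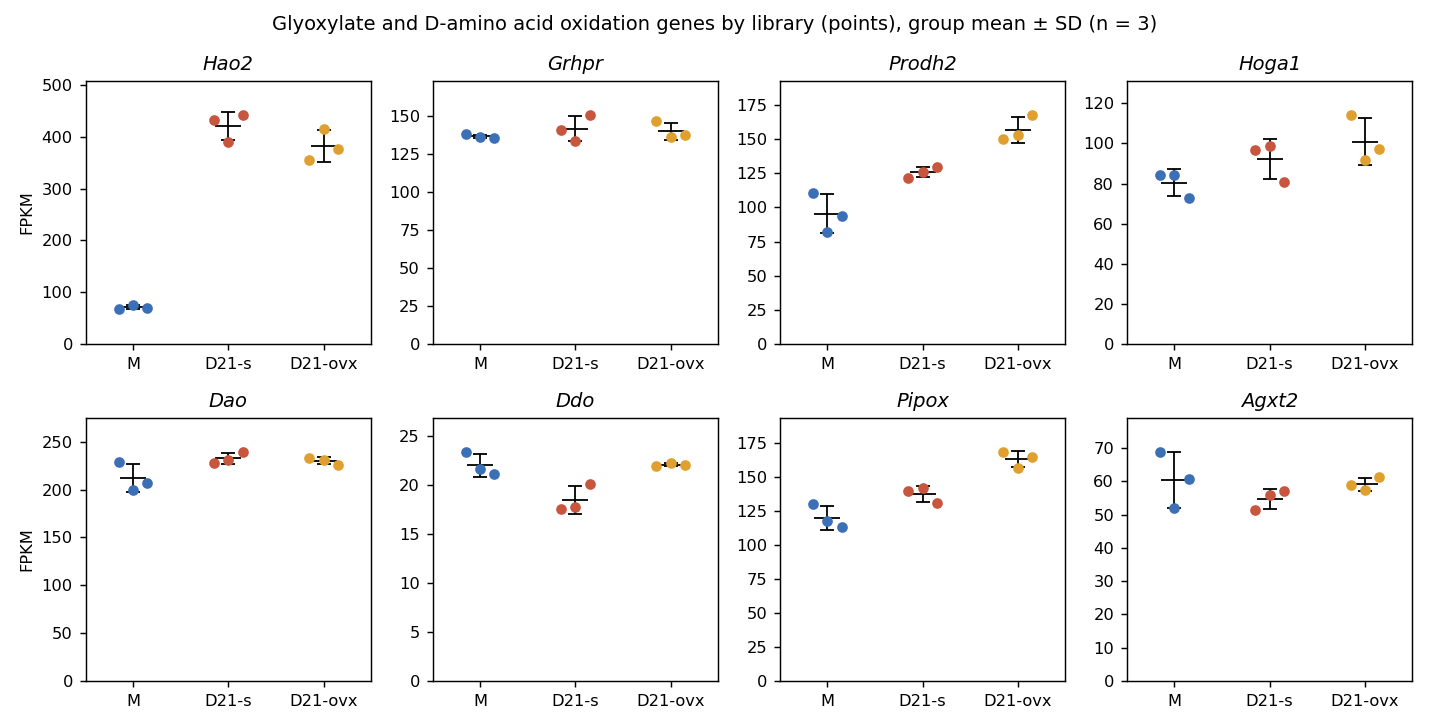
FPKM (vertical axis, from 0, a separate scale for each gene) of the 8 genes in the 3 libraries of each group (points), with the group mean and SD (bars). The 3 male values of Hao2, 67.79 to 75.25, lie far below the 6 female values, 355.41 to 441.32, whereas the points of Grhpr overlap in all 3 groups.

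The comparison of sham females with sham males sets the sexes side by side. The male day of surgery and the female age at collection are not given, so sex cannot be told apart from differences in these. This comparison called 2 of 8 members higher and 0 lower, where 4.28% and 4.87% of all genes tested were called higher and lower. The count of members was 1, Hao2, in 10 of the 13 alternative fits and 2 to 4 in the other 3. The median log2 fold change of the members was 0.16, beside -0.0887 over all genes tested. The libraries of 4 members did not overlap between the groups, 3 higher and 1 lower in females, where 30.3% of all genes did not overlap in either direction. The split of all calls moved with the scaling, from 563 higher and 641 lower as deposited to 845 and 471 after median-ratio scaling and 695 and 471 after quantile normalization.

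Hao2 encodes a peroxisomal oxidase of L-hydroxy acids and lies on chromosome 3, 98874521 to 98893239, minus strand (GENCODE M21, build GRCm38, as for all positions here), with 9 exons in its coding transcript. It was at 67.79, 75.25 and 70.41 FPKM in the 3 M libraries, 431.85, 389.16 and 441.32 in D21-s, and 355.41, 415.82 and 376.36 in D21-ovx. Every female library was higher than every male library, and the female groups overlapped. The difference between D21-s and M was 2.55 on the log2 scale (SE 0.08, limma adjusted p = 1.34e-07). By log2 fold change Hao2 ranked 20 of 13160 genes from the top. The call held in all 13 alternative fits, in which the log2 fold change was 2.48 to 2.64 and the adjusted p at most 1.81e-05. With the level of the other-cell markers as a covariate it was 2.48. Hao1, the glycolate oxidase gene best known from liver, was listed at 0 in 8 of the 9 libraries and at 0.02 FPKM in the other. Of the genes tested, the neighbours of Hao2 were Hsd3b3, 111394 bp away, and Wars2, 247829 bp away, and neither was called in this comparison. Hsd3b3, a steroid dehydrogenase gene, was called between D21-ovx and M (0.88, limma adjusted p = 0.00751).

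Grhpr, Prodh2 and Hoga1 act on the route from hydroxyproline to glyoxylate and beyond. Prodh2 encodes the mitochondrial enzyme that opens hydroxyproline breakdown (chromosome 7, 30493622 to 30513402, plus strand, 10 exons). It was at 110.47, 82.14 and 93.87 FPKM in M, 121.8, 126.14 and 129.2 in D21-s, and 149.64, 152.96 and 167.23 in D21-ovx. The 3 groups did not overlap. Between D21-s and M the log2 fold change was 0.40 (SE 0.10, limma adjusted p = 0.0367). Without M library 1 the difference was 0.51 (adjusted p = 0.00583). The call was lost without M library 2 (adjusted p = 0.0979) or 3 (0.109), or without D21-s library 1 (0.0596), 2 (0.11) or 3 (0.105). It was also lost with the other-cell marker covariate (0.23, adjusted p = 0.571), a fit that separates group from marker level poorly. The adjusted p ranged from 0.00583 to 0.571 over the alternatives. In D21-s the summed markers of the whole proximal tubule stood at 1.348 times the male mean and those of early segments at 1.077 times, beside 1.32 for Prodh2. The late-segment sum, at 1.369 times, mostly follows Slc27a2 (1.38 times) and does not stand for the segment.

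Hoga1 encodes the mitochondrial aldolase that splits hydroxyoxoglutarate into glyoxylate and pyruvate (chromosome 19, 42045610 to 42070953, plus strand, 7 exons). It was at 84.38, 84.2 and 73.04 FPKM in M, 96.79, 98.78 and 80.73 in D21-s, and 113.98, 91.5 and 97.33 in D21-ovx. The M and D21-s libraries overlapped, and the difference was 0.19 (95% interval -0.05 to 0.43, limma adjusted p = 0.292). Grhpr encodes the reductase that turns glyoxylate into glycolate, and its loss causes a primary hyperoxaluria in humans (chromosome 4, 44981395 to 44990734, plus strand, 9 exons). It was at 137.95, 136.51 and 135.66 FPKM in M, 141.18, 133.83 and 150.53 in D21-s, and 146.63, 136.27 and 137.7 in D21-ovx. The groups overlapped, and the difference between D21-s and M was 0.05 (95% interval -0.08 to 0.19, limma adjusted p = 0.615).

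Dao, Ddo and Pipox encode peroxisomal flavin oxidases. Dao, whose product oxidises neutral and basic D-amino acids such as D-serine, lies on chromosome 5, 114003703 to 114025682, plus strand, with 11 exons. It was at 228.62, 199.93 and 207.31 FPKM in M, 227.37, 231.1 and 239.13 in D21-s, and 232.95, 231.14 and 226.13 in D21-ovx. Its difference between D21-s and M was 0.14 (SE 0.06, limma adjusted p = 0.191). M library 1 overlapped the females, and without it Dao was called (0.19, adjusted p = 0.0431, range over alternatives 0.0431 to 0.84).

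Ddo, whose product oxidises the acidic D-amino acids D-aspartate and D-glutamate, lies on chromosome 10, 40630011 to 40681847, plus strand, with 5 exons. It was at 23.35, 21.6 and 21.07 FPKM in M, 17.54, 17.74 and 20.14 in D21-s, and 21.97, 22.21 and 22.04 in D21-ovx. It was the only member whose D21-s libraries all lay below the males, and its D21-ovx libraries lay within the male range. The difference between D21-s and M was -0.24 (SE 0.07) and did not pass (limma adjusted p = 0.0774).

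Pipox, whose product oxidises pipecolate and sarcosine, lies on chromosome 11, 77880615 to 77894096, minus strand, with 8 exons. It was at 130.1, 117.57 and 113.06 FPKM in M, 139.77, 142.41 and 131.06 in D21-s, and 168.53, 157.11 and 165.25 in D21-ovx. The groups did not overlap, and the difference between D21-s and M was 0.20 (SE 0.07, limma adjusted p = 0.103). It was called without M library 1 (0.25, adjusted p = 0.0319) and after median-ratio scaling between libraries (0.29, adjusted p = 0.0391), in a range over alternatives of 0.0319 to 0.374.

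Agxt2 encodes a mitochondrial aminotransferase that makes glycine from glyoxylate and also acts on beta-aminoisobutyrate and dimethylarginines (chromosome 15, 10358532 to 10410153, plus strand, 14 exons). It was at 68.85, 52.1 and 60.6 FPKM in M, 51.29, 56.05 and 57.05 in D21-s, and 58.88, 57.39 and 61.29 in D21-ovx. The groups overlapped in part, and the difference between D21-s and M was -0.13 (95% interval -0.35 to 0.08, limma adjusted p = 0.402). Its neighbour Prlr, the prolactin receptor gene, lies 9352 bp before it on the same chromosome and had a log2 fold change of 5.33 in the same comparison. Of the 16 tested genes that flank the 8 members, Prlr was the only one called between D21-s and M. Agxt, the related liver enzyme gene, was at 0 to 0.08 FPKM over the 9 libraries. Agxt2 and Hoga1 each share their locus with 1 annotated gene on the same strand, and those were at 0 to 2.13 FPKM.

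**Figure D2:**
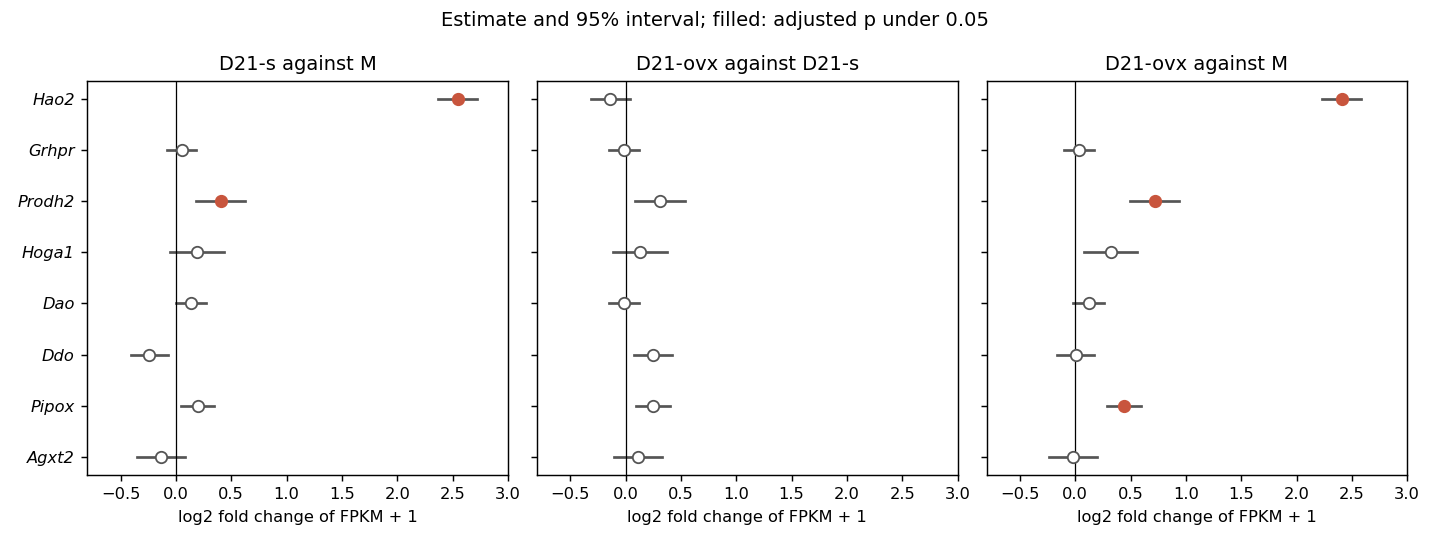
log2 fold changes of FPKM + 1 (horizontal axis) with 95% intervals from limma for the 8 genes in the 3 comparisons; filled points have an adjusted p under 0.05. Hao2 stands at 2.55 and 2.41 in the comparisons of females with males, and no point is filled between ovariectomized and sham females.

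The comparison of ovariectomized with sham females addresses the effect of removing the ovaries at postnatal day 21. The limma fit called 0 of 8 members, and of all genes tested 0% were called higher and 0.0076% lower. That share is 1 gene, Pllp, named after its value was seen. With the replicate number as a block, 0 genes were called. At an unadjusted p under 0.05 limma had 3 of 8 members (Ddo, Pipox and Prodh2), all higher in D21-ovx, and 6.29% of all genes tested. The libraries of 4 members did not overlap and were higher in D21-ovx, where 12.9% of all genes did not overlap in either direction. The median log2 fold change of the members was 0.12, beside 0.0071 over all genes.

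Prodh2 had the largest difference of the members at 0.31 on the log2 scale (95% interval 0.09 to 0.54, limma adjusted p = 0.555), and its D21-ovx mean was 1.25 times that of D21-s. Pipox was at 0.25 (0.10 to 0.40, adjusted p = 0.443), and Ddo also at 0.25 (0.08 to 0.42, adjusted p = 0.549). Agxt2 was the fourth member whose libraries did not overlap, at 0.11 (-0.11 to 0.33, adjusted p = 0.961). Hao2 was at -0.14 (-0.31 to 0.04, adjusted p = 0.899), so the 95% interval reaches down to a difference of -0.31 on this scale. Dao and Grhpr were both at -0.02 with intervals within -0.15 to 0.12, and Hoga1 was at 0.13 (-0.11 to 0.37). The marker sum of other cell types overlapped between these groups.

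The comparison of ovariectomized females with sham males called 3 of 8 members higher and 0 lower, where 5.63% and 6.19% of all genes tested were called higher and lower. The libraries of 4 members did not overlap, all higher in D21-ovx, where 34.1% of all genes did not overlap in either direction. As deposited 741 genes were higher and 814 lower, against 1024 and 490 after median-ratio scaling and 767 and 536 after quantile normalization. This comparison shares its male libraries with the first and its ovariectomized libraries with the second, so the values of the 3 are not independent. Hao2 was at 2.41 (SE 0.08, limma adjusted p = 1.55e-07), Prodh2 at 0.72 (SE 0.10, adjusted p = 0.00181) and Pipox at 0.44 (SE 0.07, adjusted p = 0.00314). All 3 stayed called in all 13 alternative fits, with adjusted p up to 1.06e-05, 0.0378 and 0.0245. With the other-cell marker covariate they were at 2.36, 0.57 and 0.49. Hoga1 did not overlap the males and was at 0.32 (adjusted p = 0.089), and it was called after median-ratio scaling (0.41, adjusted p = 0.0317) and with the covariate (0.54, adjusted p = 0.0309), in a range over alternatives of 0.0309 to 0.233. Dao was at 0.12, Grhpr at 0.04, Ddo at 0.01 and Agxt2 at -0.02, with adjusted p of 0.225 to 0.97. In D21-ovx the summed markers of the whole proximal tubule stood at 1.399 times the male mean and those of early segments at 0.961 times. Prodh2 was at 1.64 times and Pipox at 1.36. The late-segment sum, at 1.606 times, mostly follows Slc27a2 (1.66 times) and does not stand for the segment.

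A ratio within a library is not touched by scaling between libraries. Hao2 relative to the geometric mean of the other 7 members was -0.46, -0.12 and -0.24 on the log2 scale in M, 2.26, 2.09 and 2.26 in D21-s, and 1.78, 2.08 and 1.89 in D21-ovx. Hao2 thus moved from just below the geometric mean of the other 7 in males to about 2 log2 units above that mean in females. The distance to single members differed. Dao, for example, was at 212 FPKM in M, 233 in D21-s and 230 in D21-ovx, beside 71.2, 421 and 383 for Hao2. Prodh2 relative to the other 7 was 0.20 ± 0.16 in M, 0.21 ± 0.03 in D21-s and 0.45 ± 0.10 in D21-ovx (SD, n = 3), and Pipox was 0.59 ± 0.04, 0.36 ± 0.09 and 0.52 ± 0.04. Each ratio includes Hao2 in its denominator, except that of Hao2 itself.

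Genes that act beside the members were read from 7 lists. For the counts below, 4.28% of all genes tested were called higher and 4.87% lower in D21-s against M. In D21-ovx against M the shares were 5.63% and 6.19%. The medians over all genes were -0.0887 and -0.088. Among 15 partners of glyoxylate and hydroxyproline metabolism 13 passed the filter. In D21-s against M 3 were higher and 1 lower, with a median of -0.02 beside -0.0887 over all genes. Aldh4a1, the gene of the dehydrogenase that follows Prodh2 on the hydroxyproline route, was at 163 ± 22.5 FPKM in M, 216 ± 10.3 in D21-s and 225 ± 2.91 in D21-ovx. It was called in both comparisons with males (0.42, limma adjusted p = 0.0223, and 0.47, adjusted p = 0.00968). Ldhd, the gene of a mitochondrial dehydrogenase of D-lactate, was lower in both, at 199.6 ± 21.4 FPKM in M, 99.2 ± 3.09 in D21-s and 88.3 ± 0.450 in D21-ovx. The imino acid transporter genes Slc6a20a and Slc6a20b were higher in both. Slc6a20a was at 4.57 ± 0.920 FPKM in M, 10.02 ± 2.13 in D21-s and 10.1 ± 0.768 in D21-ovx, and Slc6a20b at 61.4 ± 6.76, 99.8 ± 6.41 and 97.2 ± 4.14. They are close paralogs whose reads the counting could have divided. Between D21-ovx and M the list had 3 higher and 1 lower.

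Of 17 genes of glycine, serine and sarcosine metabolism 16 passed the filter, and 9 were higher and 0 lower in D21-s than in M (median 0.41). Dmgdh, the dimethylglycine dehydrogenase gene, led them at 12.2 ± 3.68 FPKM in M, 50.2 ± 6.00 in D21-s and 63.7 ± 4.22 in D21-ovx. Gamt, of creatine synthesis, Shmt1, which interconverts serine and glycine, and Amt, of the glycine cleavage system, were higher by 0.77, 0.76 and 0.68. In D21-ovx against M 7 were higher and 1 lower (median 0.37). The higher ones included Dmgdh (2.33), Gamt (0.98) and Sardh, the sarcosine dehydrogenase gene (0.83), whose product shares its substrate with that of Pipox. The lower one was Psat1, of serine synthesis (-0.99).

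Of 9 genes of D-amino acid handling, which include Dao and Ddo, 8 passed the filter, and 2 were higher and 0 lower in D21-s than in M (median 0.01). Dglucy, the D-glutamate cyclase gene, was at 27.3 ± 4.57 FPKM in M, 53.1 ± 0.855 in D21-s and 48.9 ± 4.72 in D21-ovx. Slc5a8, a sodium-coupled monocarboxylate transporter gene, was at 15.6 ± 3.02, 34.9 ± 2.14 and 37.2 ± 5.04 FPKM. Both were higher in D21-s and in D21-ovx than in M, and in the latter comparison the neutral amino acid transporter gene Slc1a5 was lower (-0.67), which makes 2 higher and 1 lower (median 0.06). Dao and Ddo were called in neither comparison.

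The pipecolate and lysine list had 7 of 9 genes tested, 4 higher and 0 lower in D21-s than in M (median 0.30) and 3 higher and 0 lower in D21-ovx than in M (median 0.43). Aass, which opens lysine breakdown, was at 123 ± 3.45 FPKM in M, 159 ± 11.1 in D21-s and 197 ± 6.67 in D21-ovx, and Aldh7a1, which acts after pipecolate, was at 205 ± 21.3, 252 ± 7.73 and 282 ± 3.79. Kyat3 and Aadat, aminotransferase genes, were higher by 0.81 and 0.79 in D21-s, and Kyat3 by 0.85 in D21-ovx. All 8 genes of beta-aminoisobutyrate and dimethylarginine metabolism, whose substrates Agxt2 shares, were tested, and 5 were higher and 0 lower in each comparison with males (medians 0.37 and 0.43). Dpys, a pyrimidine breakdown gene, was at 1.26 ± 0.0929 FPKM in M, 11.3 ± 3.93 in D21-s and 28.0 ± 3.07 in D21-ovx. Abat, Aldh6a1 and Upb1 were higher by 0.68, 0.53 and 0.41 in D21-s and by 0.78, 0.60 and 0.56 in D21-ovx. Agxt2 itself was not called.

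Of 33 peroxisomal oxidases and matrix enzymes all were tested, and 14 were higher and 4 lower in D21-s than in M (median 0.21), against 15 higher and 3 lower in D21-ovx (median 0.23). Cat, the gene of catalase, which removes the hydrogen peroxide the oxidases make, was at 271.96, 249.33 and 238.15 FPKM in M, 432.81, 469.64 and 418.34 in D21-s, and 517.23, 528.33 and 505.65 in D21-ovx. The 3 groups did not overlap, and Cat was called against M in both (0.80, limma adjusted p = 0.000112, and 1.03, adjusted p = 1.94e-05) but not between the female groups (0.23, adjusted p = 0.486). The largest differences from M were those of Acot3, an acyl-CoA thioesterase gene (2.35 and 2.25), Hacl1, of alpha-oxidation and hydroxyacyl-CoA cleavage (2.12 and 2.08), Acaa1b, a thiolase gene (1.99 and 2.58), and Baat, of bile acid conjugation (1.71 and 2.22), in D21-s and D21-ovx in that order. Acot3 and Acaa1b have close paralogs, so their reads are less certain. The lower ones in both were Amacr (-0.76 and -0.76) and Phyh (-0.41 and -0.30), of the oxidation of branched fatty acids, and Pecr (-0.77 and -0.86), of chain elongation. In D21-s they were joined by Acox3, a branched-chain oxidase gene (-0.53). These 4 were named after their values were seen. Of 26 genes of peroxisome import and membrane 24 were tested, with 8 higher and 0 lower in D21-s than in M (median 0.13) and 7 higher and 0 lower in D21-ovx (median 0.07). Pxmp2, a peroxisomal membrane channel gene, led both (1.04 and 1.26). Mpv17l, a gene related to Pxmp2, Abcd3, of fatty acid import, and Slc25a17, a cofactor carrier gene, were higher in D21-s by 0.64, 0.55 and 0.52. In D21-ovx Abcd3, the acyl-CoA synthetase gene Slc27a2 and Pex11a, of peroxisome division, were higher by 0.86, 0.74 and 0.74. Slc27a2 is also in the late-segment marker list. None of the 7 lists held a gene called by limma between D21-ovx and D21-s, where 0% of all genes tested were called higher and 0.0076% lower.

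**Figure D3:**
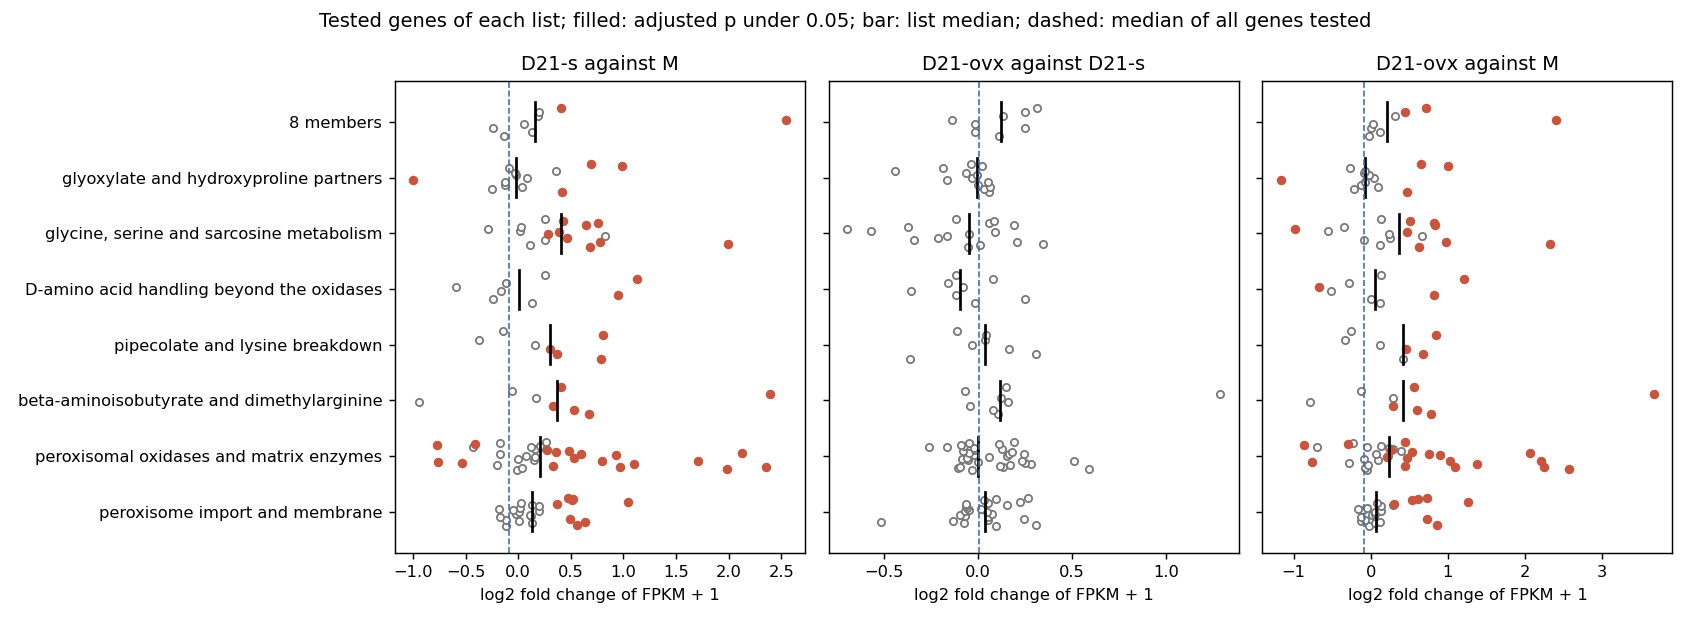
log2 fold changes of FPKM + 1 (horizontal axis, a separate scale in each panel) of the tested genes of the 8 members and the 7 lists (rows) in the 3 comparisons; filled points have an adjusted p under 0.05, bars mark list medians and the dashed line marks the median of all 13160 genes. In the comparisons with males most filled points lie to the right of 0 and the medians of the lists range from -0.08 to 0.43, while the middle panel has no filled point.

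The genes whose profile over the 9 libraries was most like that of a called member were sought among 8364 genes with a mean of at least 5 FPKM. Likeness was the root mean square difference of log2(FPKM + 1) after centring each gene on its mean. For Hao2 the nearest were Acot3 (0.19), Slc6a18, a glycine transporter gene (0.25), and Hacl1 (0.28), of which Acot3 and Hacl1 are also in the peroxisomal list. For Prodh2 they were Slc19a3, a thiamine transporter gene (0.06), Mettl7a1 (0.08) and Flrt1 (0.09). For Pipox they were Bach1, a haem-regulated repressor gene (0.05), Plscr2 (0.06) and Rpl13, a ribosomal protein gene (0.07). The root mean square is in log2 units, and the profiles of Pipox and Prodh2 span less than that of Hao2.

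**Figure D4:**
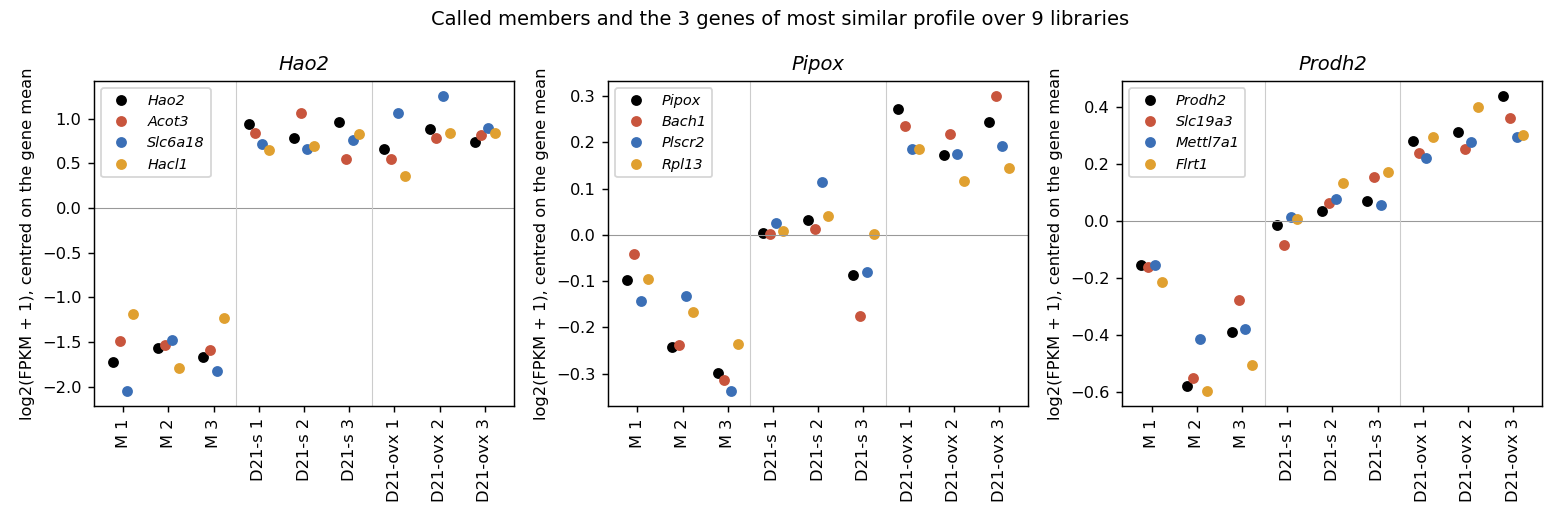
log2(FPKM + 1) centred on the mean of each gene (vertical axis, a separate scale in each panel) in the 9 libraries (horizontal axis) for Hao2, Pipox and Prodh2 and the 3 genes most like each (colours). Acot3, the nearest to Hao2 with a root mean square difference of 0.19, is low in all 3 male libraries and high in all 6 female ones, as Hao2 is.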

How the data were processed

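RNA was sequenced from prominin-1-positive kidney cortex cells, with strand-specific libraries per the labels' protocols. The authors deposited FPKM per gene and library with 2 decimals, and no scaling between libraries is stated. The submitters' processing notes list STAR 2.6.0c and RSEM. The version of RSEM, the build and the annotation were not given in the sources used here. Of the 52405 gene IDs, 52093 were found in GENCODE M21 (GRCm38), which supplied positions. A further 4 unnamed columns of the table were not used.

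Depth was inferred from how low values are spaced in genes with 1 transcript: 64.8% to 71.6% of them fell on whole-read steps at the depth chosen, against a median of 6.4% to 7.5% over all depths tried. Counting error was not computed from it.

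Genes that reached 1 FPKM in 3 or more of the 9 libraries were fitted as log2(FPKM + 1) with limma 3.58.1 (R 4.3.3, trended empirical Bayes, 1 mean per group), two-sided, with Benjamini-Hochberg adjustment over 13160 genes. The pseudocount of 1 shrinks differences of low genes. The fit was tested on simulated data with 200 changed genes. The p-values measure the spread between libraries, which may in part be technical. Alternatives were a pseudocount of 0.1, no filter, median-ratio scaling, quantile normalization, a replicate block, 2-group fits, a covariate of other-cell markers, and leaving out each library.

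The titles number the replicates alike in each group. Deviations of same-numbered libraries from their group means correlated at 0.347, 0.174 and 0.291 between D21-ovx and D21-s, at -0.125, 0.145 and 0.28 between D21-s and M, and at -0.03, 0.016 and 0.075 between D21-ovx and M. Different-numbered libraries reached 0.054, 0.282 and 0.163 in these comparisons, in that order. Only between the female groups did every same-numbered pair exceed every different-numbered one, and no label explains this. The main fit used no pairing. The replicate block took the number over all 9 libraries, the males included.

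The members and gene lists were chosen with earlier results of these data known. Named genes are the 8 members, Agxt, Hao1, Aldh4a1, Cat and Prom1, up to 4 called genes per list and comparison with the largest change, and the 3 genes nearest in profile to each called member, leaving out predicted genes. Promoters are from RefSeq (GRCm38.p6), where all 8 members matched, and the Hao2, Prodh2 and first Agxt2 windows are printed. Tables and plots were made with matplotlib 3.10.9, pandas 2.3.3 and numpy 2.4.6 under Python 3.11.15.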

Additional observations from a re-analysis of the deposited data

How the results depend on the processing

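Hao2 kept its call against M in all 13 alternatives of both comparisons, and Prodh2 and Pipox kept theirs in D21-ovx against M. The count of members called in D21-s against M was 2, and it was 1 (Hao2) without the filter, with quantile normalization, with a replicate block, in the 2-group fit and with the marker covariate, and 1 to 4 over the fits that leave out 1 library. The 4 without M library 1 were Hao2, Prodh2, Pipox and Dao. Genes called in D21-s against M numbered 1204, and 739 without the filter, where more genes were tested, 722 in the 2-group fit, 339 with the covariate, and 570 to 1635 leaving out 1 library. In D21-ovx against M they numbered 1555, 658 with the covariate and 877 to 1698 leaving out 1 library. In D21-ovx against D21-s they numbered 1, 2 without the filter, 0 after median-ratio scaling, quantile normalization or the replicate block, 9 in the 2-group fit, 4 with the covariate, and 0 to 11 leaving out 1 library, with 0 members called throughout. The count moved by over 1.5 times without M library 2 (645) or 3 (643) or D21-s library 2 (570) or 3 (735) in D21-s against M, and without M library 2 (1006) or 3 (932) or D21-ovx library 1 (1022), 2 (877) or 3 (899) in D21-ovx against M. In D21-ovx against D21-s it was 11 without D21-s library 2, 1 without D21-ovx library 1 and 0 in the other 4 such fits. For other changes between settings the cause was not tested.

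With the replicate block, which matches the males by number too, the adjusted p of Prodh2 in D21-s against M was 0.0526. No other member changed its call. Signs turned only for differences near 0 that were never called. In D21-ovx against M, Agxt2 was 0.069 after median-ratio scaling and -0.12 to 0.073 leaving out 1 library, Dao -0.0099 and Grhpr -0.068 after quantile normalization, and Ddo -0.097 with the covariate and -0.024 to 0.047 leaving out 1 library. In D21-ovx against D21-s, Dao was -0.031 to 0.0052 and Grhpr -0.057 to 0.028 leaving out 1 library. Depth was only estimated, and 3 libraries a group limit the precision.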
